A study of Homo sapiens with 24 samples.

Results

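The proteasome subunit genes were taken as every gene of the table whose symbol is PSMA, PSMB, PSMC, PSMD, PSME, PSMF or PSMG followed only by digits, which gave 46 of 14114 genes. They were measured by RNA sequencing in 24 libraries of 3 human triple-negative breast cancer lines, which the labels give as basal (MDA-MB-157, MDA-MB-231, MDA-MB-468), all recorded as negative for the estrogen receptor ERα and the progesterone receptor and without HER2 overexpression. Exposure lasted 3 h, to DMSO at 0.05% (v/v), to thalidomide at 1000 nM, to BETi-211 at 1000 nM or to BETd-246 at 100 nM. DMSO and thalidomide both counted as controls in the series description. BETi-211 is a BET inhibitor, which keeps BET bromodomain proteins off acetylated chromatin, and BETd-246 is a BET degrader, which has them ubiquitinated through cereblon and destroyed by the proteasome. Thalidomide binds cereblon. Each of the 12 groups held 2 libraries, described as independent biological replicates, so each line had 4 control libraries. The lines are established cell lines, 1 line per name, so a difference between them is a difference between 3 lines and not between tumour types. Sets of 3 values are in the order MDA-MB-157, MDA-MB-231, MDA-MB-468.

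The proteasome degrades ubiquitinated proteins. Its 20S core is a stack of rings: outer alpha rings, whose subunits gate the entrance, and inner beta rings, which carry the proteolytic sites. PSMB5, PSMB6 and PSMB7 hold these sites, and cytokines such as interferon gamma induce PSMB8, PSMB9 and PSMB10 to take their places in the immunoproteasome, which serves antigen presentation. A 19S regulatory particle caps the core. Its base unfolds substrates with a ring of ATPases, and its lid removes ubiquitin through PSMD14. The activators PSME1 and PSME2 (PA28 alpha and beta), PSME3 (PA28 gamma) and PSME4 (PA200) open the core without ubiquitin, PSMF1 (PI31) was first described as an inhibitor of the core, and a set of chaperones builds the rings. When the proteasome is impaired, the transcription factor NRF1, encoded by NFE2L1, raises its subunit genes together.

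All 46 genes are protein-coding in GENCODE version 29. They comprised 7 alpha ring genes, 7 constitutive beta ring genes, 3 inducible beta genes, 6 base ATPases, 3 base subunits that are no ATPases (PSMD1, PSMD2, PSMD4), 8 lid subunits, 7 assembly chaperones (PSMD5, PSMD9, PSMD10, PSMG1 to PSMG4), 4 activators and PSMF1. The table has no row for PSMA8 and PSMB11, tissue-restricted subunits of testis and thymus. Levels are taken as FPKM, which is scaled to gene length. The length used for each gene is not given, so levels of different genes can be set side by side only with that limit. Every member entered every test, since no filter on low values was applied. In 24 of the 46 genes an annotated gene on the opposite strand overlaps, and the library kit does not mark strand, so reads of such pairs cannot be told apart.

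The FPKM columns summed to 454289 to 534179 per library, and these sums were higher with both compounds than in the controls of the same line. The table gives no counts, so depth is unknown here and no counting interval is given; within-group correlation of log2 values was 0.992 to 0.998 across genes. The epithelial keratins KRT5 and KRT17 reached 698 to 876 and 920 to 1310 FPKM over the 8 libraries of MDA-MB-468 and stayed below 1 FPKM in the other lines. KRT8 and KRT18, also epithelial keratins, were expressed in every line. KRT8 was at 155.5 to 196.4, 147.5 to 174.5 and 1193 to 1590 FPKM, and KRT18 at 279 to 338.3, 200.1 to 233.3 and 1115 to 1328 FPKM. VIM, a mesenchymal filament gene, was at 1976 to 2299, 816 to 1030 and 11.6 to 14.1 FPKM. Of the other mesenchymal genes, FN1 was at 220.3 to 272.1, 47.7 to 59.35 and 2.744 to 3.81 FPKM. CDH2 was at 21.56 to 26.14 FPKM in MDA-MB-157, 0.1445 to 0.3522 in MDA-MB-231 and at most 0.005548 in MDA-MB-468. ZEB1 was instead highest in MDA-MB-231, at 5.822 to 7.011, 18.9 to 26.68 and 0.048 to 0.1095 FPKM. The table has no row for ESR1, PGR or the leukocyte markers PTPRC, CD3E and CD79A, and ERBB2 was at 7.17 to 19.5 FPKM. CD14, a monocyte marker, was at 50.9 to 68.1 FPKM over the 8 libraries of MDA-MB-157 and at most 0.730 FPKM in the others. Among the control libraries of MDA-MB-231, thalidomide replicate 1 gave the lowest value for 40 of the 46 members, with a median member level of 78.6 FPKM against 86.7 and 88.2 in the DMSO libraries and 90.7 in thalidomide replicate 2. Some counts that rest on it are given with and without it below: members higher with BETd-246, lower with BETi-211 and differing in effect between lines. The others, such as the counts between lines in the controls, are given only with it.

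Proteasome genes were expressed far above most of the table. Their median level over all 24 libraries was 86.4 FPKM against 9.69 for all genes; 45 members lay above the table's median, 42 above its 75th percentile and 31 above its 90th. Together they made up 0.90 to 0.926% of all FPKM in the controls of MDA-MB-157, 0.947 to 1.03% in MDA-MB-231 and 1.09 to 1.138% in MDA-MB-468. The highest was PSMA7 (chr20:62136735-62143440, minus strand, GRCh38), an alpha ring subunit, at a mean of 368 FPKM. PSMC1, a base ATPase, was the lowest at 3.86 FPKM, at percentile 27.7 of the table. Of the 50-base stretches of PSMC1 transcripts, 84.9% also occur in transcripts of other genes and 20.2% in annotated pseudogenes, shared by 14 of them. PSMA2, the lowest alpha gene at 25.8 FPKM, shared 32.6% with other genes and 17.9% with pseudogenes; no other member exceeded 10% with pseudogenes, and 23 shared none. Of the members described below, PSMB10 shared 27.5% with other genes of any kind, PSMD7 27.3%, PSMD9 21.9% and PSMA1 19.6%. Smaller shares above 10% were those of PSMA6 (15.35%), PSMB8 (15.28%), PSMG4 (14.77%), PSMC5 (13.04%) and PSMG2 (12.33%). The levels of all these members are therefore uncertain, as it is not known how reads that fit several genes were counted.

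**Figure D1:**
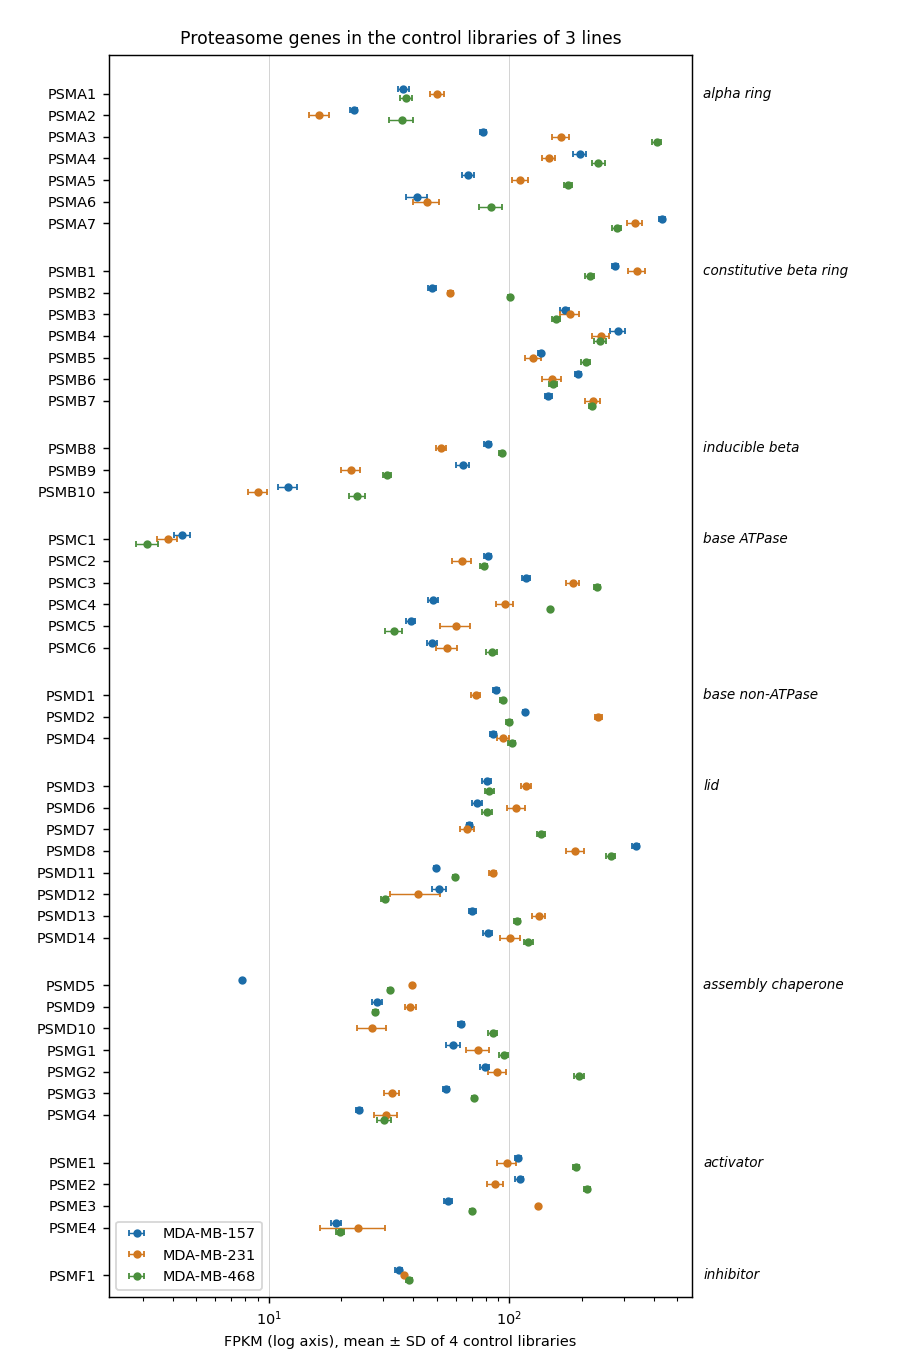
Mean FPKM ± SD of the 4 control libraries of each line (log axis) for the 46 genes, grouped by subunit class; each colour is a line. PSMC1 lies between 3.13 and 4.39 FPKM while the other base ATPases lie between 33.2 and 232, and PSMA3 and PSMD5 show the widest gaps between lines.

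Subunits of a ring, which are present in the complex in equal numbers, differed widely in FPKM. In the MDA-MB-157 controls the alpha ring ran from 22.6 ± 0.68 FPKM (SD, n = 4) for PSMA2 to 432 ± 13 for PSMA7, a 19.2-fold range. In MDA-MB-468 it ran from 35.9 ± 4.2 for PSMA2 to 410.4 ± 17 for PSMA3, an 11.4-fold range. Both ranges rest on PSMA2, whose level is uncertain as said above, as is that of PSMA1, the next lowest in MDA-MB-157 (36.4 ± 1.8 FPKM). The longest annotated transcript is 4251 bases for PSMA2, 1023 for PSMA7 and 1279 for PSMA3, and the lengths used for scaling are not known. The constitutive beta ring was tighter, with 5.90-, 5.96- and 2.37-fold ranges in the 3 lines and PSMB2 the lowest in each. In the lid PSMD8 was the highest member of each line, at 336 ± 12, 189 ± 17 and 265 ± 12 FPKM. The deubiquitinase PSMD14 was at 81.6 ± 3.4, 101 ± 9.9 and 120.4 ± 4.9 FPKM. PSMF1 was the most even member, with a 1.10-fold range of control means over the lines.

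The lines differed at most members. MDA-MB-468 had the highest control mean for 23 members, MDA-MB-231 for 15 and MDA-MB-157 for 8; in 22, 11 and 4 of these all 4 control libraries lay above every control library of the other lines. The fold between the highest and the lowest line had a median of 1.74, reached at least 2 for 16 members and stayed below 1.5 for 15. None of these counts was made over all genes, so how far they are particular to the members is not known. MDA-MB-231 thalidomide replicate 1 entered all of them. Between MDA-MB-157 and MDA-MB-468, 11 members were called higher and 30 lower in MDA-MB-157 (adjusted p below 0.05, from limma's test on log2(FPKM + 1) fitted on all genes, with Benjamini-Hochberg adjustment), where 46% of all genes were called higher and 42.1% lower. Against MDA-MB-231, MDA-MB-157 had 17 members higher and 25 lower beside 50.1% and 37.2% of all genes, and MDA-MB-468 had 26 higher and 15 lower beside 47.8% and 38.4%. Median member differences were -0.29, -0.15 and 0.28 on the log2 scale, beside 0.04, 0.13 and 0.08 over all genes. Most genes of the table were called between lines, so that a call as such on a member is close to the background. Its direction was not in MDA-MB-157. There more members were lower than higher against both other lines, while more of all genes were higher than lower.

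PSMA3 (chr14:58244831-58272012, plus strand), an alpha ring subunit, differed most among core genes. In the controls it was at 79.8 and 79.2 FPKM with DMSO and 76.3 and 75.3 with thalidomide in MDA-MB-157, at 169 and 168 (DMSO) and 144 and 176 (thalidomide) in MDA-MB-231, and at 431 and 409 (DMSO) and 412 and 390.2 (thalidomide) in MDA-MB-468. The 3 lines did not overlap. MDA-MB-157 was 5.23-fold lower than MDA-MB-468 (log2 -2.39 ± 0.045 (SE), adjusted p = 1.1e-17), and MDA-MB-468 was 2.5-fold higher than MDA-MB-231 (log2 1.32 ± 0.045 (SE), adjusted p = 3.9e-14). Its antisense gene PSMA3-AS1 had a mean of 16.3 FPKM and had log2 differences of -0.80 (MDA-MB-157 against MDA-MB-468) and 0.49 (MDA-MB-468 against MDA-MB-231); its part in the result was not tested. Other alpha genes followed MDA-MB-468 in part: PSMA2, PSMA4, PSMA5 and PSMA6 were also highest there, while PSMA1 was highest in MDA-MB-231 and PSMA7 in MDA-MB-157. PSMA7 was at 432 ± 13, 333 ± 24 and 280.2 ± 12 FPKM in the controls.

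PSMD5 (chr9:120815496-120842984, minus strand), a chaperone of base assembly, was low in MDA-MB-157. Its control values there were 7.76 and 7.91 FPKM with DMSO and 7.80 and 7.66 with thalidomide, against 40.0 and 40.2 (DMSO) and 39.2 and 39.1 (thalidomide) in MDA-MB-231 and 32.3 and 32.3 (DMSO) and 31.9 and 31.0 (thalidomide) in MDA-MB-468. The difference was 4.62-fold from MDA-MB-231 (log2 -2.21 ± 0.03 (SE), adjusted p = 1.6e-19) and 3.74-fold from MDA-MB-468 (log2 -1.90 ± 0.03 (SE), adjusted p = 8.3e-19). PSMD10 (gankyrin, chrX:108084207-108091618, minus strand), another base chaperone, had a different order, at 63.1 ± 1.7, 27.0 ± 3.7 and 85.4 ± 3.8 FPKM. MDA-MB-231 was thus 3.1-fold below MDA-MB-468 (adjusted p = 9.0e-13) and 2.3-fold below MDA-MB-157 (adjusted p = 5.7e-11).

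Among base and lid genes the differences ran both ways. PSMC4, a base ATPase, was at 48.2 ± 2.3, 96.1 ± 8.1 and 148 ± 2.2 FPKM and was 3.04-fold lower in MDA-MB-157 than in MDA-MB-468 (adjusted p = 4.3e-15). PSMC5, another of these ATPases, was instead highest in MDA-MB-231, at 60.2 ± 8.5 FPKM against 39.0 ± 1.6 and 33.2 ± 2.6. The scaffold subunit PSMD2 was at 117 ± 2.4, 235 ± 7.9 and 100.3 ± 3 FPKM, 2.33-fold higher in MDA-MB-231 than in MDA-MB-468 (adjusted p = 1.0e-16). PSMD8, of the lid, was 1.78-fold higher in MDA-MB-157 than in MDA-MB-231 (adjusted p = 7.1e-11). PSMD12, also of the lid, was at 51.2 ± 3.4, 41.8 ± 9.9 and 30.4 ± 0.95 FPKM; its MDA-MB-231 controls spread from 32.7 to 55.6 FPKM between the 2 thalidomide libraries and overlapped MDA-MB-157.

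The activators split by type. PSME1 and PSME2, the interferon-inducible PA28 pair, were highest in MDA-MB-468, at 189.8 ± 5.8 and 210.98 ± 6.2 FPKM. In MDA-MB-157 they were at 109 ± 3.3 and 110.5 ± 4.2, and in MDA-MB-231 at 98.2 ± 9.1 and 87.6 ± 6.4 FPKM. The nuclear activator PSME3 (chr17:42824385-42843758, plus strand) was highest in MDA-MB-231, where its controls held 134 and 133 FPKM with DMSO and 129.8 and 133 with thalidomide. It was at 55.9 ± 2.1 FPKM in MDA-MB-157 and 70.1 ± 1.4 in MDA-MB-468, 2.35-fold and 1.88-fold lower (adjusted p = 9.3e-18 and 5.1e-16). BECN1, on the opposite strand of PSME3 at a mean of 31.66 FPKM, was also highest in MDA-MB-231. Its log2 differences were -0.64 (MDA-MB-157 against MDA-MB-231) and -1.14 (MDA-MB-468 against MDA-MB-231), and its part in the result was not tested. PSME4 was low throughout, at 19.1 ± 0.89, 23.5 ± 7 and 19.9 ± 0.8 FPKM. In MDA-MB-231 its controls held 20.2 and 20.5 FPKM with DMSO and 34.0 and 19.2 with thalidomide, so that the higher mean there rests on thalidomide replicate 1.

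Each catalytic beta subunit has an inducible counterpart, so the share of the inducible gene in the FPKM of its pair was computed in each library, a value that no linear scaling of a library changes. PSMB8 made up 37.3 to 38.1% of PSMB8 plus PSMB5 in the MDA-MB-157 controls, 28.2 to 30.2% in MDA-MB-231 and 30.1 to 32.3% in MDA-MB-468. PSMB9 made up 24.2 to 25.6%, 12.3 to 13% and 16.8 to 17.4% of PSMB9 plus PSMB6. PSMB10 made up 6.83 to 8.16%, 3.63 to 4.14% and 9.0 to 10.3% of PSMB10 plus PSMB7. The constitutive gene was thus above the inducible one in every pair and line, MDA-MB-231 had the lowest shares, and MDA-MB-157 had the highest for PSMB8 and PSMB9 but not for PSMB10. Of 9 comparisons of the log2 ratio between lines with a two-sided exact permutation test over 4 against 4 libraries, 8 gave p = 0.0286, the smallest such a design allows (adjusted p = 0.0322). The remaining one, PSMB8 over PSMB5 between MDA-MB-468 and MDA-MB-231, gave p = 0.0571 (adjusted p = 0.0571, exact permutation test), with a difference of 0.11 on the log2 scale.

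**Figure D2:**
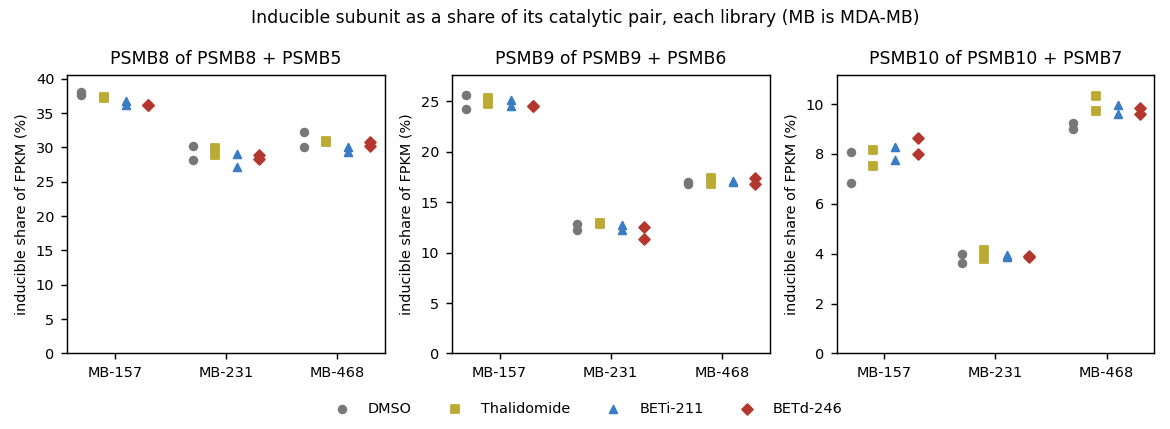
Share of the inducible gene in the FPKM of its catalytic pair (per cent), 1 point per library, by line and treatment (marker). The lines stay apart for PSMB9 and PSMB10, and treated libraries lie near the controls of their own line.

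By level, PSMB9 (chr6:32844136-32859585, plus strand) showed the widest line difference of the inducible genes. Its controls held 68.9 and 59.6 FPKM with DMSO and 63.2 and 65.7 with thalidomide in MDA-MB-157, 22.3 and 21.7 (DMSO) and 19.5 and 24.4 (thalidomide) in MDA-MB-231, and 31.5 and 29.4 (DMSO) and 32.2 and 31.5 (thalidomide) in MDA-MB-468. MDA-MB-157 was 2.85-fold above MDA-MB-231 (adjusted p = 3.8e-13) and 2.03-fold above MDA-MB-468 (adjusted p = 7.3e-11). PSMB8 and PSMB10 were instead highest in MDA-MB-468, at 93.4 ± 2.2 and 23.4 ± 1.8 FPKM, and PSMB10 was 2.44-fold higher there than in MDA-MB-231 (adjusted p = 3.0e-12). PSMB8 and PSMB9 overlap each other on opposite strands. Their constitutive counterparts were at 135 ± 3.6, 126 ± 9.8 and 208 ± 9.5 FPKM for PSMB5, 193 ± 5.7, 151 ± 13 and 152 ± 6 for PSMB6 and 145 ± 4.7, 223 ± 15 and 221 ± 6.7 for PSMB7.

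Promoter sequences from RefSeq (GRCh38.p14, 250 bases before to 50 after a start) were found for 40 of the 46 genes and searched on both strands, any overlap allowed, for 5 short motifs. TGACNNNGC, the core of the antioxidant response element that NRF1 binds, was in 15 of these genes (37.5%, against 16.1% of all genes with a promoter); CCGGAAG, an ETS motif, in 14 (35%, against 12.2%). An interferon response motif of paired GAAA repeats was in 7 genes (17.5%, against 4.38%), TTCNNNGAA, a STAT motif, in 7 (17.5%, against 9.38%), and CCAAT, the NF-Y box, in 19 (47.5%, against 39.7%). The 7 genes with the interferon motif were PSMA4, PSMB4, PSMB8, PSMB10, PSMG4, PSME1 and PSME2. Below are the 180 bases that end just before the start of 4 genes that the results turn on, with matches to TGACNNNGC and to the interferon response motif in capitals; PSMB3 and PSMD5 hold the first motif, PSMB10 the second and PSME2 both.
PSMB3 (chr17:38752561-38752740, plus strand): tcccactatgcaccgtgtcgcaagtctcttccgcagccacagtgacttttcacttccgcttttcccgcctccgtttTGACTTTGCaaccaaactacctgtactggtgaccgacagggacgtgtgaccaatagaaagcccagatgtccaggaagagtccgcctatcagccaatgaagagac
PSMD5 (chr9:120842923-120843102, minus strand): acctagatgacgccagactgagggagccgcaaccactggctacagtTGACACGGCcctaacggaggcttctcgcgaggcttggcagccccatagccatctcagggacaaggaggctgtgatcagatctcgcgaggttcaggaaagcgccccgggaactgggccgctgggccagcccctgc
PSMB10 (chr16:67936851-67937030, minus strand): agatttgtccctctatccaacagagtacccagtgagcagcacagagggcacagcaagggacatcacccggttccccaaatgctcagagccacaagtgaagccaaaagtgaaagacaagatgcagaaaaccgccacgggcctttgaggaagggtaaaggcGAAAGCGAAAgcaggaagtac
PSME2 (chr14:24146611-24146790, minus strand): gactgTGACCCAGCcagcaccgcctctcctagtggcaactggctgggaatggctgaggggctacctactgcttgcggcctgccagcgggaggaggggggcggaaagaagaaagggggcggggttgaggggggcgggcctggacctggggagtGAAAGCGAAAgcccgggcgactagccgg
A match says only that these letters are in the window. The match in PSMB3 starts 104 bases before the start, that in PSMD5 134 bases before, and the interferon motifs of PSMB10 and PSME2 lie 21 and 28 bases before it. PSMA7, PSMB1, PSMB6, PSMB7, PSMD4 and PSMG3 had no entry.

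With BETd-246 the proteasome genes moved little and mostly up. In MDA-MB-157, 18 of 46 members were called higher and 2 lower, where 19% of all genes were called higher and 32.4% lower. In MDA-MB-231 the count was 24 higher and 2 lower, beside 14.8% and 33.3% of all genes, and in MDA-MB-468 it was 25 and 2, beside 20.1% and 33.7%. No member changed 2-fold, and the medians were 0.09, 0.14 and 0.14 on the log2 scale, beside -0.03, -0.05 and -0.03 for all genes. In 17 of the 18, 22 of the 24 and 24 of the 25 members called higher, both treated libraries lay above all 4 controls. These members were picked by a test on the same libraries, so their separation is no further support for the rises. It was not counted over all genes. Members' share of all FPKM was 0.907 to 0.947%, 1.021 to 1.024% and 1.15 to 1.17% with BETd-246; it overlapped the controls in both MDA-MB-157 and MDA-MB-231 and lay above them in MDA-MB-468. Library make-up moved with the compound: the median FPKM of all genes was 8.41 to 8.56, 6.997 to 7.03 and 7.89 to 7.94 with BETd-246 against 9.80 to 10.03, 8.57 to 8.77 and 9.69 to 10.06 in the controls, and mitochondrial genes took 9.65 to 11.98%, 14.9 to 15.1% and 9.55 to 9.74% of the FPKM sum against 8.02 to 10.4%, 9.79 to 13.99% and 7.18 to 8.33%. Their part in the result was not tested.

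These rises depend on how libraries are put on 1 scale. The all-gene median moved by over 0.1 with median-of-ratios scaling, to 0.09, 0.08 and 0.09, and the members' median to 0.25, 0.34 and 0.33, with 36, 42 and 42 members higher and 1 lower in each line. With column-total scaling 3, 3 and 12 members were higher and 9, 2 and 4 lower, at members' medians of 0.00, 0.04 and 0.05 beside -0.10, -0.12 and -0.10 for all genes. With quantile normalization 12, 13 and 15 were higher and 7, 2 and 5 lower, and the members' medians of 0.04, 0.06 and 0.06 were close to those of all genes, 0.07, 0.06 and 0.07. Only 3, 2 and 7 of the rises were called under all 4 scalings: PSMA2, PSMB10 and PSMC4 in MDA-MB-157, PSMB7 and PSMD13 in MDA-MB-231, and PSMB2, PSMB3, PSMB4, PSMB6, PSMD4, PSMD8 and PSMF1 in MDA-MB-468. Of the falls, that of PSMG3 was called under all 4 in each line. Without MDA-MB-231 thalidomide replicate 1 the count of members higher in that line was 15, without thalidomide replicate 2 it was 37, and without BETd-246 replicate 1 or 2 it was 9 or 15; members lower there numbered 4 without thalidomide replicate 2 and 1 without BETd-246 replicate 1. Leaving out BETd-246 replicate 2 in MDA-MB-157 left 6 higher, and BETd-246 replicate 1 in MDA-MB-468 left 11.

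**Figure D3:**
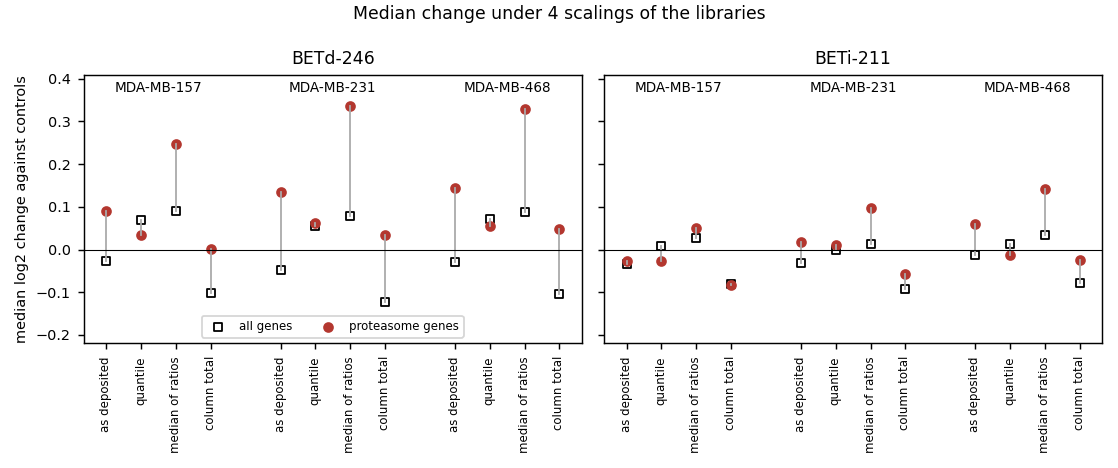
Median log2 change against the controls of the same line for the 46 genes (filled) and all 14114 genes (open), as deposited and under 3 other scalings. With BETd-246 the gap is 0.12, 0.18 and 0.17 as deposited and -0.04, 0.01 and -0.02 with quantile normalization.

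The constitutive beta ring rose most evenly with BETd-246: 6, 6 and 7 of 7 genes were called higher, with medians of 0.17, 0.17 and 0.22 on the log2 scale. PSMB4, a non-catalytic beta subunit (chr1:151399534-151401944, plus strand), held 299 and 254 FPKM with DMSO, 289 and 288 with thalidomide, 296 and 301 with BETi-211 and 323 and 339 with BETd-246 for MDA-MB-157. For MDA-MB-231 it held 240.0 and 242 FPKM with DMSO, 216 and 263 with thalidomide, 261 and 266 with BETi-211 and 285 and 269 with BETd-246, and in MDA-MB-468 242 and 220.0 FPKM with DMSO, 253 and 238 with thalidomide, 274 and 277 with BETi-211 and 291 and 281 with BETd-246. Both BETd-246 libraries were above all controls in each line, and the changes were 0.23, 0.21 and 0.26 (SE 0.07, adjusted p = 0.012, 0.023 and 0.0047), or 1.17-, 1.15- and 1.2-fold. Of the catalytic subunits, PSMB5 was at 0.11, 0.16 and 0.21. PSMB6 was at 0.16, 0.17 and 0.25, and PSMB7 at 0.18, 0.20 and 0.22. All but PSMB5 in MDA-MB-157 (adjusted p = 0.16, limma) were called. Under the alternatives given with the processing below, PSMB4 lost its call in 4, 6 and 1 cases and PSMB6 in 9, 8 and 0. PSMB7 lost it in 2, 0 and 1. PSMB5 lost it in 9 cases in MDA-MB-231 and in 3 in MDA-MB-468. The omission of either BETd-246 library was among them for PSMB6 in MDA-MB-157 and MDA-MB-231 and for PSMB5 in MDA-MB-231.

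Of the alpha ring, 3, 2 and 2 of 7 genes were called higher, with medians of 0.13, 0.15 and 0.13. PSMA7 was called in each line, at 0.20, 0.21 and 0.21 (adjusted p = 0.0082, 0.0078 and 0.0049, limma), and in MDA-MB-157 its change was -0.0021 with quantile normalization. Apart from that turn of sign, the PSMA7 call was lost under 2, 4 and 1 alternatives. It held 449 and 417 FPKM with DMSO, 432 and 430.1 with thalidomide, 439 and 453 with BETi-211 and 488 and 506 with BETd-246 for MDA-MB-157. Its levels for MDA-MB-231 were 338 and 336 FPKM with DMSO, 299.9 and 358 with thalidomide, 354 and 368 with BETi-211 and 390.1 and 376 with BETd-246, those for MDA-MB-468 290.5 and 265 FPKM with DMSO, 288 and 278 with thalidomide, 307 and 309.9 with BETi-211 and 328 and 322 with BETd-246. Both BETd-246 libraries were above all controls of their line. PSMA3, the subunit that differed most between lines, was called in none, at 0.05, 0.13 and 0.10. Among inducible beta genes PSMB10 (chr16:67934502-67937087, minus strand) was called in each line. In MDA-MB-157 it held 13.2 and 10.8 FPKM with DMSO, 11.5 and 12.6 with thalidomide, 12.5 and 12.1 with BETi-211 and 14.3 and 15.6 with BETd-246. Its levels in MDA-MB-231 were 9.61 and 8.81 FPKM with DMSO, 7.93 and 9.66 with thalidomide, 8.80 and 9.38 with BETi-211 and 10.47 and 10.3 with BETd-246, and in MDA-MB-468 22.8 and 21.1 FPKM with DMSO, 24.6 and 24.97 with thalidomide, 25.7 and 26.4 with BETi-211 and 27.7 and 27.6 with BETd-246. The treated libraries were above all controls of their line, with changes of 0.29, 0.19 and 0.23 (SE 0.074, adjusted p = 0.0037, 0.047 and 0.014). The PSMB10 call was lost under 1, 8 and 4 alternatives; omitting BETd-246 replicate 2 ended it in each line, and omitting BETd-246 replicate 1 ended it outside MDA-MB-157. PSMB8 was called outside MDA-MB-157 (0.02, 0.11 and 0.17), PSMB9 in MDA-MB-468 only (0.13, 0.06 and 0.25). The PSMB8 call was lost under 9 alternatives in MDA-MB-231 and under 1 in MDA-MB-468, and that of PSMB9 under 2.

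In the 19S particle the 3 base subunits that are no ATPases were called higher in 2, 3 and 3 cases, the ATPases in 2, 3 and 2 of 6 and the lid in 1, 3 and 4 of 8. PSMD8 (chr19:38374536-38383824, plus strand), a lid subunit, was called in each line. It held 344 and 318 FPKM with DMSO, 339 and 342 with thalidomide, 358 and 364 with BETi-211 and 388 and 386 with BETd-246 for MDA-MB-157, 189 and 195 FPKM with DMSO, 166 and 205 with thalidomide, 208 and 211.2 with BETi-211 and 222 and 210.8 with BETd-246 for MDA-MB-231, and 263 and 250 FPKM with DMSO, 279 and 267 with thalidomide, 307 and 312 with BETi-211 and 317 and 314 with BETd-246 for MDA-MB-468. Treated libraries were above all controls, and the changes were 0.20, 0.20 and 0.25 (SE 0.061, adjusted p = 0.01, 0.013 and 0.0022, limma). The PSMD8 call was lost under 4 alternatives in MDA-MB-157 and 5 in MDA-MB-231, and it held under every alternative in MDA-MB-468. PSMC4 and PSMC3, base ATPases, were also called in each line, PSMC4 at 0.24, 0.16 and 0.16, PSMC3 at 0.14, 0.18 and 0.16. The PSMC4 call held under every alternative in MDA-MB-157 but was lost under 10 of them in MDA-MB-231 and under 8 in MDA-MB-468, among them the omission of either BETd-246 library. PSMD14, the deubiquitinase, was called in none, at 0.04, 0.15 and 0.11 (adjusted p = 0.63, 0.056 and 0.14). PSMC6 and PSMD12 had negative values in each line and no call: PSMC6 was at -0.16, -0.01 and -0.02 and PSMD12 at -0.32, -0.10 and -0.03.

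PSME1 and PSME2 were called higher in each line, PSME1 at 0.19, 0.21 and 0.21, PSME2 at 0.19, 0.20 and 0.22. Neither was called under all 4 scalings in any line. The PSME1 call was lost under 4 alternatives in MDA-MB-157, either BETd-246 library left out among them, and under 4 in MDA-MB-231. PSME3 was called in MDA-MB-231 (0.08, adjusted p = 0.022, limma), where quantile normalization and column-total scaling turned the sign (-0.0144 and -0.0177), and PSME4 in none. BECN1, on the opposite strand of PSME3, was called higher in each line (0.18, 0.16 and 0.19), and its part in the result was not tested. PSMF1 was called in each line, at 0.13, 0.11 and 0.20 (adjusted p = 6.2e-04, 0.002 and 6.3e-06), with levels of 38.1 ± 0.43, 39.6 ± 0.65 and 44.3 ± 0.84 FPKM against 34.8 ± 1.1, 36.5 ± 0.27 and 38.4 ± 1.2 in the controls. In all, 15 members were called higher in each of the 3 lines and 17 in no line. The same was not counted over all genes, of which 19%, 14.8% and 20.1% were called higher in the single lines. How far such agreement between lines is particular to the members is therefore not known.

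**Figure D4:**
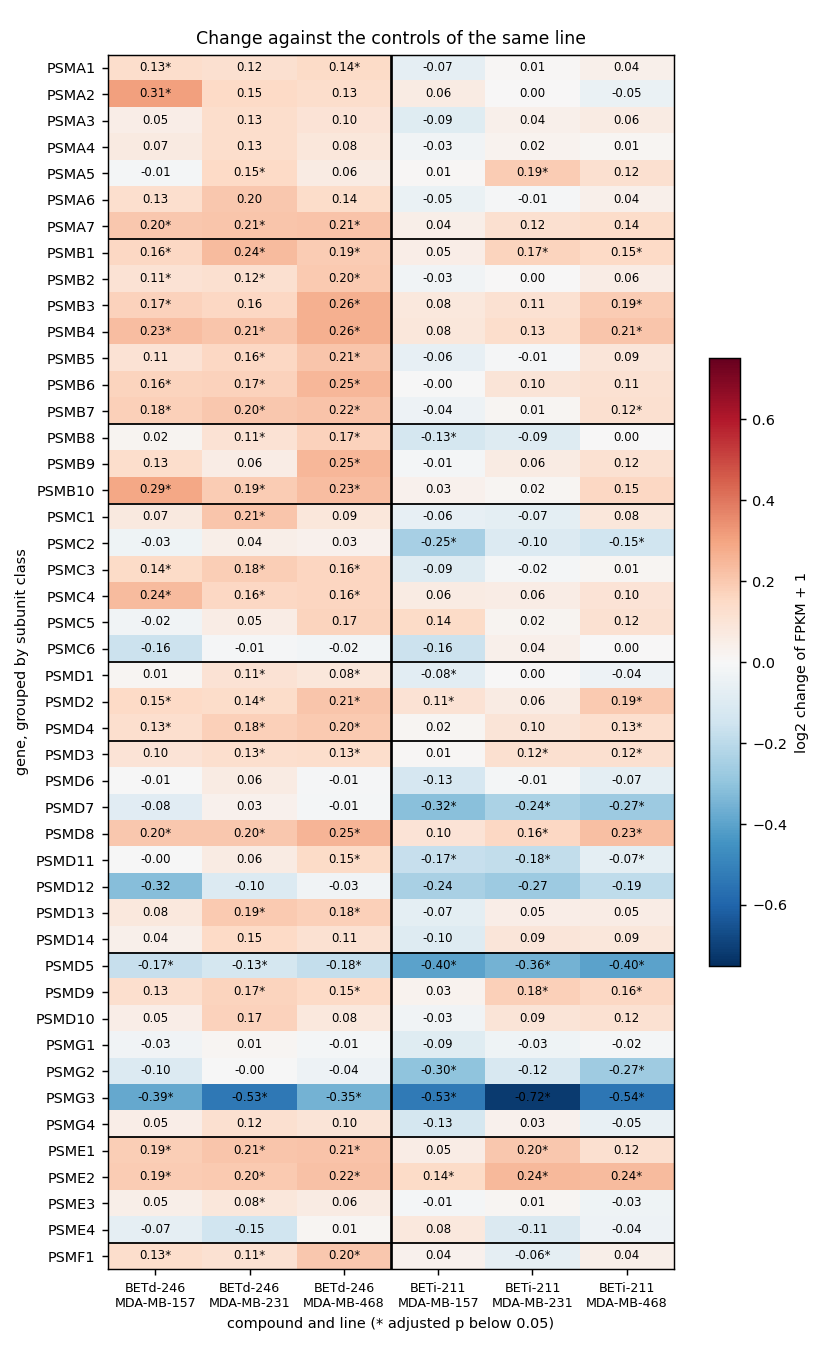
Log2 change of FPKM + 1 against the 4 controls of the same line for each gene (rows, by subunit class) with BETd-246 at 100 nM and BETi-211 at 1000 nM; a star marks adjusted p below 0.05. The beta ring is red across the BETd-246 columns, and PSMG3 and PSMD5 are blue in all 6 columns.

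Both members called lower with BETd-246, PSMG3 and PSMD5, are assembly chaperones. PSMG3 (PAC3, chr7:1567330-1571005, minus strand), which with PSMG4 helps to assemble the alpha ring, was called lower in each line with both compounds. In MDA-MB-157 it held 57.1 and 55.0 FPKM with DMSO, 53.3 and 53.8 with thalidomide, 36.7 and 38.6 with BETi-211 and 40.3 and 43.0 with BETd-246. In MDA-MB-231 the values were 32.9 and 31.8 FPKM with DMSO, 30.0 and 35.3 with thalidomide, 18.1 and 20.6 with BETi-211 and 22.4 and 21.8 with BETd-246, and in MDA-MB-468 they were 71.0 and 69.8 FPKM with DMSO, 72.8 and 71.2 with thalidomide, 48.4 and 48.9 with BETi-211 and 56.6 and 54.3 with BETd-246. No treated library of either compound overlapped a control of its line. With BETd-246 the changes were -0.39, -0.53 and -0.35 (SE 0.056, adjusted p = 2.6e-05, 6.3e-07 and 5.5e-05), or 1.31-, 1.45- and 1.28-fold lower. With BETi-211 they were -0.53, -0.72 and -0.54 (adjusted p = 8.4e-07, 2.0e-08 and 4.5e-07), or 1.44-, 1.64- and 1.46-fold lower. All 6 calls held under every alternative tried, with values from -0.63 to -0.17 for BETd-246 and -0.80 to -0.45 for BETi-211. The gene shares none of its 50-base stretches with pseudogenes. Its antisense gene PSMG3-AS1, at a mean of 1.49 FPKM, was not called with BETd-246 (-0.06, -0.05 and 0.13); with BETi-211 it was at -0.20, 0.05 and 0.14, called lower in MDA-MB-157 and higher in MDA-MB-468. Its part in the result was not tested.

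PSMD5 was called lower in each line with both compounds as well. In MDA-MB-157 it held 7.76 and 7.91 FPKM with DMSO, 7.80 and 7.66 with thalidomide, 5.82 and 5.48 with BETi-211 and 6.41 and 7.17 with BETd-246. The MDA-MB-231 libraries held 40.0 and 40.2 FPKM with DMSO, 39.2 and 39.1 with thalidomide, 30.7 and 30.7 with BETi-211 and 35.6 and 36.4 with BETd-246, and those of MDA-MB-468 32.3 and 32.3 FPKM with DMSO, 31.9 and 31.0 with thalidomide, 24.4 and 23.3 with BETi-211 and 28.5 and 27.6 with BETd-246. The BETi-211 libraries were the lowest of each line and the BETd-246 libraries lay between them and the controls, without overlap. Changes were -0.40, -0.36 and -0.40 with BETi-211 (SE 0.036, adjusted p = 1.5e-07, 4.6e-07 and 9.6e-08) and -0.17, -0.13 and -0.18 with BETd-246 (adjusted p = 8.6e-04, 0.0064 and 6.4e-04). The BETi-211 calls held under every alternative tried (-0.48 to -0.28), but the BETd-246 changes turned positive with quantile normalization in MDA-MB-157 (0.05) and with median-of-ratios scaling elsewhere (MDA-MB-231, 0.06; MDA-MB-468, 0.0045), and the call in MDA-MB-231 was lost without BETd-246 replicate 1. PSMD5-AS1, on the opposite strand at a mean of 4.17 FPKM, was called lower with BETd-246 (-0.38, -0.33 and -0.24) and not called with BETi-211; its part in the result was not tested. The other chaperones were not called lower with BETd-246, and PSMD9 was called higher outside MDA-MB-157, at 0.13, 0.17 and 0.15.

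**Figure D5:**
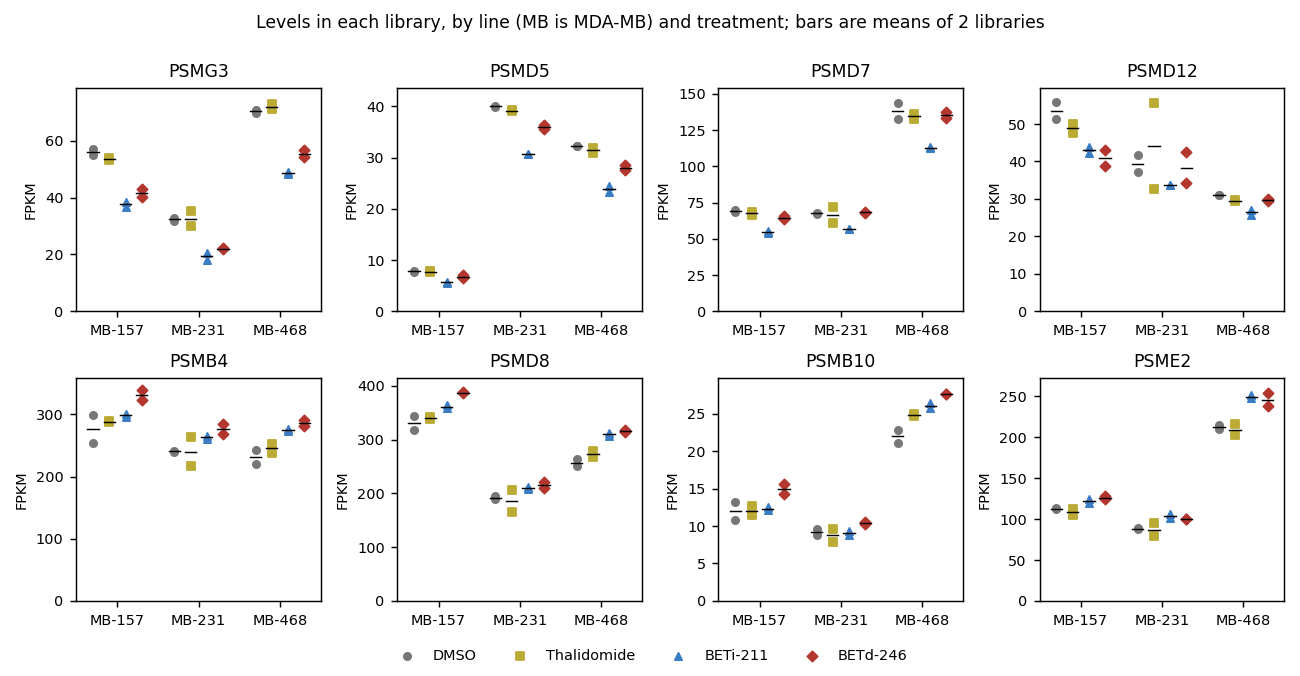
FPKM of 8 named genes in each of the 24 libraries, by line and treatment; short bars are means of 2 libraries and every axis starts at 0. PSMG3 and PSMD5 fall with both compounds in each line, PSMD7 falls with BETi-211, and PSMB4 and PSMD8 are highest with BETd-246.

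BETi-211 at 1000 nM left most members without a call. In MDA-MB-157 2 were called higher and 8 lower, beside 14.9% and 30.9% of all genes; in MDA-MB-231 the counts were 7 and 5, beside 18.7% and 31.4%, and in MDA-MB-468 10 and 6, beside 21.3% and 32.5%. The members' medians were -0.03, 0.02 and 0.06, beside -0.03, -0.03 and -0.01 for all genes. Of the falls, 6 of 8, 4 of 5 and 4 of 6 were called under all 4 scalings, and of the rises 0 of 2, 3 of 7 and 2 of 10. With column-total scaling 0, 3 and 3 members were higher and 19, 10 and 9 lower; with quantile normalization 2, 4 and 6 were higher and 13, 7 and 10 lower; with median-of-ratios scaling 4, 19 and 23 were higher and 6, 4 and 4 lower. Without MDA-MB-231 thalidomide replicate 2 there were 18 higher in that line, without BETi-211 replicate 2 there was 1, and without DMSO replicate 1 or BETi-211 replicate 1 there were 4; without thalidomide replicate 1 there were 8 lower. In MDA-MB-157 the 2 rises became 1 without either DMSO library, thalidomide replicate 1 or BETi-211 replicate 1 and 0 without BETi-211 replicate 2, and in MDA-MB-468 leaving out DMSO replicate 2, thalidomide replicate 2 or either BETi-211 library left 3 or 4 higher. The doses of the compounds differ and both share the same controls, so no test between them was made.

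PSMD7 (chr16:74296775-74306288, plus strand), a lid subunit that pairs with PSMD14, was called lower in each line with BETi-211. It held 70.1 and 68.2 FPKM with DMSO, 66.3 and 68.7 with thalidomide, 54.2 and 55.2 with BETi-211 and 63.4 and 65.5 with BETd-246 for MDA-MB-157. For MDA-MB-231 the values were 67.2 and 68.1 FPKM with DMSO, 60.9 and 71.6 with thalidomide, 56.6 and 56.7 with BETi-211 and 68.8 and 68.1 with BETd-246, and in MDA-MB-468 144 and 133 FPKM with DMSO, 136 and 132 with thalidomide, 113 and 112 with BETi-211 and 137 and 133 with BETd-246. The BETi-211 libraries lay below all others of their line. The changes were -0.32, -0.24 and -0.27 (SE 0.048, adjusted p = 4.5e-05, 6.7e-04 and 1.7e-04) and held under every alternative tried. With BETd-246 it was not called, at -0.08, 0.03 and -0.01. PSMD11, another lid subunit, was called lower with BETi-211 at -0.17, -0.18 and -0.07 (adjusted p = 1.5e-04, 8.0e-05 and 0.047); in MDA-MB-468 this turned to 0.008 with median-of-ratios scaling. PSMD12 was at -0.24, -0.27 and -0.19 with no call in any single line, though it was called in the average over lines (-0.24 ± 0.078 (SE), adjusted p = 0.014). It held 51.3 and 55.8 FPKM with DMSO, 49.9 and 47.7 with thalidomide, 42.3 and 43.8 with BETi-211 and 38.7 and 43.0 with BETd-246 for MDA-MB-157. Its MDA-MB-231 libraries had 41.7 and 37.1 FPKM with DMSO, 55.6 and 32.7 with thalidomide, 33.7 and 33.7 with BETi-211 and 34.2 and 42.5 with BETd-246, and the MDA-MB-468 libraries had 31.1 and 31.2 FPKM with DMSO, 29.8 and 29.3 with thalidomide, 27.2 and 25.7 with BETi-211 and 29.5 and 30.1 with BETd-246. The BETi-211 libraries were below all controls except in MDA-MB-231. The alpha ring chaperone PSMG2 was called lower outside MDA-MB-231, at -0.30, -0.12 and -0.27.

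PSME2 (chr14:24143362-24147570, minus strand), the beta subunit of PA28, was the member called higher in each line with BETi-211. Its values were 114 and 112 FPKM with DMSO, 104 and 112 with thalidomide, 119.6 and 124 with BETi-211 and 124 and 128 with BETd-246 for MDA-MB-157. For MDA-MB-231 they were 87.3 and 89.1 FPKM with DMSO, 79.3 and 94.7 with thalidomide, 101 and 106 with BETi-211 and 101 and 100.4 with BETd-246, and in MDA-MB-468 215 and 210.3 FPKM with DMSO, 216 and 202 with thalidomide, 251 and 248 with BETi-211 and 253 and 238 with BETd-246. All treated libraries of both compounds lay above the controls of their line. Changes were 0.14, 0.24 and 0.24 with BETi-211 (SE 0.055, adjusted p = 0.045, 0.0016 and 0.0016) and 0.19, 0.20 and 0.22 with BETd-246. The BETi-211 call of PSME2 in MDA-MB-157 was lost under 7 alternatives, either BETi-211 library left out among them. Outside that line the call held under every alternative. PSME1, the partner of PSME2, was called in MDA-MB-231 only, at 0.05, 0.20 and 0.12. PSMB3, a non-catalytic beta subunit, was at 0.08, 0.11 and 0.19 and PSMB4 at 0.08, 0.13 and 0.21, both called in MDA-MB-468, a call that each lost under 7 alternatives. PSMB3 held 179.995 and 166 FPKM with DMSO, 165 and 170.0 with thalidomide, 176 and 183 with BETi-211 and 189 and 195 with BETd-246 for MDA-MB-157. Its MDA-MB-231 libraries had 170.2 and 185 FPKM with DMSO, 163 and 199 with thalidomide, 188 and 198 with BETi-211 and 207 and 192 with BETd-246, and the MDA-MB-468 libraries had 160.0 and 148 FPKM with DMSO, 163 and 155 with thalidomide, 181 and 177 with BETi-211 and 193 and 183 with BETd-246. The BETi-211 libraries of PSMB3 overlapped the controls except in MDA-MB-468. PSMD8, called outside MDA-MB-157, was at 0.10, 0.16 and 0.23; its call in MDA-MB-231 was lost under 10 alternatives, either BETi-211 library left out among them, and that in MDA-MB-468 under quantile normalization. The inducible PSMB8 was called lower in MDA-MB-157 (-0.13, adjusted p = 0.018), while PSMB9 and PSMB10 were called in no line. PSMB8 made up 36.2 to 36.7% of its pair under BETi-211, and under BETd-246 36.2 to 36.3%, in MDA-MB-157, below its 37.3 to 38.1% in the controls, a difference that was not tested.

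Few members were called for a difference in a compound's effect between lines. For BETd-246, 0 members differed between MDA-MB-157 and MDA-MB-231 (11.2% of all genes did), 1 between MDA-MB-157 and MDA-MB-468 (13.1%), then 0 between MDA-MB-468 and MDA-MB-231 (13.3%). For BETi-211 the counts were 0, 0 and 1, beside 16.5%, 21.6% and 21.9% of all genes. In the 4 comparisons with a count of 0 in the limma test, 1, 2, 5 and 3 members had an unadjusted p below 0.05. These counts rest in part on single libraries: without MDA-MB-231 thalidomide replicate 2, 11 members differed for BETd-246 and 21 for BETi-211 between MDA-MB-157 and MDA-MB-231, and without thalidomide replicate 1 there were 3 and 1. Between MDA-MB-468 and MDA-MB-231, leaving out either thalidomide library of MDA-MB-231 gave 3 for BETd-246 and 6 for BETi-211. The called members were PSMD11 for BETd-246 and PSMF1 for BETi-211. PSMD11 was at -0.00, 0.06 and 0.15 with BETd-246, a difference of -0.15 ± 0.042 (SE), adjusted p = 0.026. PSMF1 was at 0.04, -0.06 and 0.04 with BETi-211, and MDA-MB-468 and MDA-MB-231 differed by 0.11 ± 0.037 (SE), adjusted p = 0.046. The PSMD11 call was lost under 8 alternatives and the PSMF1 call under 15.

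Thalidomide against DMSO gave no called member in any line, at 0.184%, 0% and 0% of all genes called. With limma, 3, 3 and 2 members had an unadjusted p below 0.05, and the lowest adjusted p of a member was 0.208, 0.804 and 0.32. Without MDA-MB-231 thalidomide replicate 2, which leaves 1 thalidomide library there whose spread is taken from the other groups, 27 members were called in that line.

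Several genes around the proteasome changed by more than any subunit did. A list of 11 genes around NRF1 also held NFE2L2, KEAP1, BACH1 and HSF1, so that it is wider than NRF1 itself. With BETd-246, 8, 7 and 9 of the 11 were called lower, beside 32.4%, 33.3% and 33.7% of all genes. In each line 2 were called higher, beside 19%, 14.8% and 20.1% of all genes. The list's medians were -0.33, -0.48 and -0.40. BACH1, a repressor at antioxidant response elements, changed by -0.56, -1.04 and -0.89, MAFG, a small MAF partner of NRF1 and NRF2, by -0.89, -0.88 and -0.84, and NFE2L2, which encodes NRF2, by -0.91, -0.75 and -0.87. These 3 kept their sign under all 4 scalings. NFE2L1 itself, named after its values were seen, was at 24.6, 52.4 and 32.2 FPKM in the controls and its differences were -0.01, -0.02 and -0.24, called in MDA-MB-468 only; the first 2 turned positive with median-of-ratios scaling. With BETi-211, 4, 5 and 4 genes of the list were called lower and 2 in each line higher, beside 30.9%, 31.4% and 32.5% of all genes lower and 14.9%, 18.7% and 21.3% higher, so these counts are near the background; MAFG was at -0.86, -0.96 and -0.40, NFE2L2 at -0.79, -0.78 and -0.81 and BACH1 at 0.07, -0.11 and 0.15. Of the subunit genes that hold TGACNNNGC, 4, 6 and 8 of 15 were called higher with BETd-246, and of those without it 9, 13 and 12 of 25. The difference between these shares was not tested.

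Among 14 proteasome partners without a PSM symbol, 0, 2 and 2 were called higher and 6, 3 and 3 lower with BETd-246 (medians -0.05, -0.03 and -0.04), beside 19%, 14.8% and 20.1% of all genes higher and 32.4%, 33.3% and 33.7% lower. These counts are close to or below the background except for the 6 lower in MDA-MB-157. ZFAND5, a zinc finger protein that stimulates the proteasome, changed by -1.18, -1.16 and -1.54, and AKIRIN2, needed to bring proteasomes into the nucleus, by -0.97, -0.89 and -1.26. With BETi-211 ZFAND5 was at 0.11, 0.15 and -0.09 and AKIRIN2 at -0.23, -0.23 and -0.21; for BETi-211 the list had 2 higher in each line and 6, 3 and 3 lower, beside 14.9%, 18.7% and 21.3% of all genes higher and 30.9%, 31.4% and 32.5% lower. ZFAND2A was at -0.62, -0.18 and -0.04 with BETd-246, and its MDA-MB-231 and MDA-MB-468 values turned positive with median-of-ratios scaling. Of 16 genes for ubiquitin, its activating enzymes and shuttle factors, 7, 6 and 7 were called higher and 3, 1 and 3 lower with BETd-246, and 2, 5 and 7 higher and 4, 4 and 6 lower with BETi-211, beside 14.9%, 18.7% and 21.3% of all genes higher and 30.9%, 31.4% and 32.5% lower with BETi-211. The list's medians were 0.05, 0.09 and 0.05 with BETd-246 and 0.01, 0.08 and 0.09 with BETi-211, against all-gene medians of -0.03, -0.05 and -0.03 with the first compound and -0.03, -0.03 and -0.01 with the other. With BETd-246 the shuttle UBQLN2 was at -0.38, -0.40 and -0.41, and FAF1, a cofactor of the segregase VCP, at 0.16, 0.20 and 0.20.

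The immunoproteasome genes belong with an antigen processing program, of which 15 other genes were measured. With BETd-246, 10, 7 and 10 of these were called higher and 2, 3 and 3 lower; with BETi-211, 2, 6 and 8 higher and 2, 4 and 4 lower. Over all genes 19%, 14.8% and 20.1% were higher and 32.4%, 33.3% and 33.7% lower with BETd-246, and 14.9%, 18.7% and 21.3% higher and 30.9%, 31.4% and 32.5% lower with BETi-211; the list's medians were 0.15, 0.11 and 0.15, and 0.01, 0.02 and 0.14. The BETi-211 count in MDA-MB-157 is near the background for rises. Its transcription factors IRF1 and IRF2 were among those called lower. IRF1, which activates PSMB8, PSMB9 and TAP1, had control means of 23.6, 22.1 and 40.6 FPKM and fell to 5.05, 4.38 and 5.89 FPKM with BETd-246, changes of -2.02, -2.10 and -2.59 (adjusted p = 1.4e-14, 8.4e-15 and 8.4e-16). With BETi-211 it changed by -0.84, -0.76 and -1.44. IRF2 changed by -0.25, -0.44 and -0.55 with BETd-246 and -0.77, -0.46 and -0.83 with BETi-211, and TAPBP (tapasin), which loads peptides onto class I molecules, by 0.28, 0.13 and 0.27 with BETd-246. IRF1, IRF2 and TAPBP kept these signs with BETd-246 under all 4 scalings. Counts of the gene lists were not recomputed under the other scalings, so how far the rises hold there is not known. TAP1 was at 0.153, 0.107 and 0.059 with BETd-246 as deposited. With column-total scaling it was at 0.060, 0.009 and -0.037, and with median-of-ratios scaling at 0.311, 0.304 and 0.242. Beside the fall of IRF1 at 3 h, none of PSMB8, PSMB9, PSMB10, PSME1 and PSME2 was called lower with BETd-246 in any line. Of the 7 subunit genes with an interferon motif in their promoter, as shown for PSMB10 and PSME2, 4, 5 and 5 were called higher with BETd-246 and none lower, against 9, 14 and 15 higher and 1 lower in each line among the 33 without it, a difference that was not tested.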

How the data were processed

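RNA sequencing of rRNA-depleted total RNA covered 24 libraries of 3 cell lines in 12 groups of 2. The deposited table holds values of 14114 genes without stating a unit, and the values themselves fit FPKM. Bowtie 0.12.8, bcl2fastq 2.17.1.14 and the build GRCh38.p5 are named per the submitters' processing notes; the program behind the FPKM values, with its annotation and filters, is not given in the sources used here. Depth is unknown, so low values have no counting error attached.

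From the deposited FPKM, log2(FPKM + 1) was fitted with limma 3.58.1 in R 4.3.3, with 1 coefficient per group over all libraries, a variance trend, 12 residual and 3.32 prior degrees of freedom and Benjamini-Hochberg adjustment over all genes (threshold 0.05). A fold change is on this scale and understates changes of low genes. Controls are the mean of DMSO and thalidomide. The fit was tested on simulated data. Ratios of catalytic pairs, log2((inducible + 1)/(constitutive + 1)), were compared with exact permutation tests. Positions are from GENCODE version 29, promoters from RefSeq. Alternatives were 3 scalings (quantile, median-of-ratios, column-total), a pseudocount of 0.1, a filter at 5 FPKM, DMSO or thalidomide alone as control, each line alone, a replicate block and leaving out each library.

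Members are all genes of the naming rule. Named were the 4 largest rises and falls among called members averaged over lines for each compound, with line differences and interactions chosen likewise. Also named were the most changed genes of each of 4 lists: NRF1 and related factors, proteasome partners, ubiquitin and shuttles, and antigen processing. The members and lists were chosen with earlier results of these data known. One gene that this rule names is not reported here.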

Additional observations from a re-analysis of the deposited data

Results flagged for a closer look

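A test of the difference between lines singled out 2 values. The change of PSMD11, a lid subunit, with BETd-246 was -0.149 on the log2 scale in MDA-MB-157 relative to MDA-MB-468 (limma adjusted p = 0.0263). The change of PSMF1 with BETi-211 was 0.109 higher in MDA-MB-468 than in MDA-MB-231 (limma adjusted p = 0.0457).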

How the results depend on the processing

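Of the single-gene results, 60 of 69 differences between lines but 22 of 73 compound effects kept their call under every alternative. With quantile normalization, members higher with BETd-246 numbered 12, 13 and 15 and lower 7, 2 and 5 (order MDA-MB-157, MDA-MB-231, MDA-MB-468); with median-of-ratios scaling 36, 42 and 42 and 1, 1 and 1; with column-total scaling 3, 3 and 12 and 9, 2 and 4. With BETi-211 these were 2, 4 and 6 and 13, 7 and 10; 4, 19 and 23 and 6, 4 and 4; and 0, 3 and 3 and 19, 10 and 9. With DMSO as the only control, 11 and 12 members were higher with BETd-246 in both MDA-MB-157 and MDA-MB-231, in that order, and 1 and 3 with BETi-211; with thalidomide alone, 1 and 3 were higher with BETi-211 in the first and last line. With a line fitted alone, 6 were lower in MDA-MB-157 and 4 higher in MDA-MB-231 for BETd-246, and with BETi-211 15 were lower in MDA-MB-157, 2 higher in MDA-MB-231 and 16 higher in MDA-MB-468. The cause was not tested.

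Differences in effect between lines gave 1 member with quantile normalization and 1 with median-of-ratios scaling for BETd-246 between MDA-MB-157 and MDA-MB-231, and 4, 2 and, with thalidomide alone, 0 between MDA-MB-157 and MDA-MB-468. For BETi-211 quantile normalization gave 2 between MDA-MB-157 and MDA-MB-231 and 4 between MDA-MB-468 and MDA-MB-231, where median-of-ratios scaling, column-total scaling, the 5 FPKM filter, thalidomide alone and the replicate block each gave 0.

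Signs turned with quantile normalization for PSMA7 with BETd-246 in MDA-MB-157 (-0.0021), PSMD5 there (0.0516), PSME3 with BETd-246 in MDA-MB-231 (-0.0144), PSMB7 with BETi-211 in MDA-MB-468 (-0.0034) and PSMF1 between MDA-MB-468 and MDA-MB-231 (-0.0076). Column-total scaling turned PSME3 (-0.0177). Median-of-ratios scaling turned PSMD5 with BETd-246 (0.0621 in MDA-MB-231, 0.0045 in MDA-MB-468), PSMF1 with BETi-211 in MDA-MB-231 (0.0155), PSMD11 with BETi-211 in MDA-MB-468 (0.008), PSME1 between MDA-MB-157 and MDA-MB-231 (-0.0056) and PSMF1 between MDA-MB-468 and MDA-MB-231 (-0.0433).

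Leaving out 1 library at a time, members higher with BETd-246 ranged from 6 to 19, 9 to 37 and 11 to 24, and lower in MDA-MB-231 from 1 to 4. With BETi-211 members higher ranged from 0 to 2, 1 to 18 and 3 to 11, and lower in MDA-MB-231 from 4 to 8. Differences in effect ranged from 0 to 11, 0 to 1 and 0 to 3 for BETd-246 (MDA-MB-157 against MDA-MB-231, against MDA-MB-468, and MDA-MB-468 against MDA-MB-231), and for BETi-211 from 0 to 21 in the first and 0 to 6 in the last. Thalidomide against DMSO in MDA-MB-231 ranged from 0 to 27.

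The replicate numbers were not taken to pair the samples: deviations of same-numbered libraries correlated from -0.224 to 0.272, -0.316 to 0.227 and -0.062 to 0.302, above 0.1 in 4, 2 and 4 of 6 pairs of groups.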
